A study of Anopheles gambiae with 6 samples.

Results

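The transcripts described here are those that the array assigned to the X chromosome of the malaria mosquito Anopheles gambiae. They were taken by identifier alone, as every row whose identifier starts with Ag.X., and no measured value entered this rule. The class itself was picked with earlier results of these arrays known. The rule gave 1403 probe sets, which carry 1242 different identifier numbers, out of 16884 Anopheles probe sets and 22761 rows in all. For comparison, 9101 probe sets were placed on arms 2L (3427), 3L (2494) and 3R (3180). RNA came from last-instar (4th) larvae of the G3 strain on 6 Affymetrix arrays. Of these, 3 carried RNA of dissected salivary glands, each a pool of 50 larvae, and 3 carried RNA of whole larvae, each a pool of 200. Both groups came from 1 strain with no treatment named, and the labels give no sex for the pools. Whole larvae still hold their glands, so the groups are not separate tissues. The labels call the pools biological repeats and do not say whether they came from separate rearings, so the p-values measure the spread between these pools. The identifiers were not paired with genes in the sources used here (0 of 1403 matched a table of 15165 genes). No X transcript is therefore named by gene, and the labelled tissues were not checked against defining marker genes.

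In Anopheles gambiae females carry a pair of X chromosomes, while males carry a single X and a Y. The X of males is transcribed at a raised rate, which brings its output close to that of females, a process known as dosage compensation. The larval salivary gland is a secretory organ of few, large cells with polytene chromosomes, in which many aligned DNA copies lie side by side. Its secretions enter the gut with the food. The study asked which transcripts are present in the larval gland and which of them are enriched over the entire larva.

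Values were log2 RMA values, a scale of hybridization brightness for each probe set on which a difference of 1 is a 2-fold change. Arrays of the same tissue correlated at r = 0.971 to 0.986 (gland) and 0.926 to 0.941 (whole larvae) across Anopheles probe sets. Whole-larva arrays were the more variable, with the larger SD for 74.8% of X probe sets. The median SD of an X probe set was 0.143 over gland arrays and 0.254 over whole-larva arrays (n = 3 each). The number of arrays limits the precision of every value below. In these bulk samples, fewer cells of a type and less RNA per cell cannot be told apart.

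As a class, X transcripts had a higher median level than those of the other arms in the gland and a close one in whole larvae. The median X level was 6.06, 6.07 and 6.01 on the gland arrays and 6.001, 5.918 and 5.919 on the whole-larva arrays. The median over 2L, 3L and 3R was 5.85, 5.85 and 5.83 in gland and 5.96, 5.96 and 5.86 in whole larvae. X therefore lay above the other arms by 0.21 ± 0.023 in gland, with every gland array between 0.18 and 0.22. In whole larvae the gap was 0.020 ± 0.052 (SD, n = 3 each), and its sign varied between arrays, from -0.040 to 0.059. Gland and whole-larva arrays did not overlap in this gap. On every gland array both medians lay under the brightness floor described below (6.65 ± 0.036 for gland). Among probe sets above that floor, the gap was 0.034 in gland and -0.16 in whole larvae. That filter admits more X probe sets through whole larvae (557) than through gland (391), so it does not treat the tissues alike. The same held on the other arms (38.3% through whole larvae and 24.2% through gland). No p-value is given for this or any other value summed over the X probe sets, since they were examined with earlier results of these arrays known.

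The X excess in gland was found in the dim and middle range and not among bright transcripts. The 10th percentile of X was 4.62 ± 0.030 in gland, against 4.45 ± 0.020 on the other arms, and the 25th percentile was 5.27 ± 0.017 against 5.07 ± 0.011. All of these gland values lay under the brightness floor described below. The order turned at the top: the 90th percentile of X was 7.93 ± 0.10 against 8.11 ± 0.057 in gland, and 8.20 ± 0.14 against 8.52 ± 0.12 on the whole-larva arrays (each SD over 3). The 99th percentile of gland was 11.56 ± 0.16 on X and 12.88 ± 0.12 elsewhere, and that of whole larvae was 11.43 ± 0.29 and 12.48 ± 0.062. X thus had lower upper percentiles in both tissues. Only 14 X probe sets (0.998%) reached a mean level of 11 over the 6 arrays, against 155 (1.70%) on 2L, 3L and 3R.

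A brightness floor was set on each array at the 95th percentile of 290 probe sets with purely numeric identifiers, whose targets the sources used here do not give. This floor was 6.65 ± 0.036 for gland and 6.02 ± 0.075 for whole larvae (each SD over 3). Between 31.4% and 32.1% of X probe sets exceeded it on a gland array, against 27.5% to 28.6% of those on the other arms. On whole-larva arrays the shares were 44.3% to 50.5% for X and 43.0% to 49.6% for the others. Of the 1403, 391 exceeded it on all gland arrays, 557 on all whole-larva arrays and 367 on all 6, while 606 exceeded it on none.

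**Figure D1:**
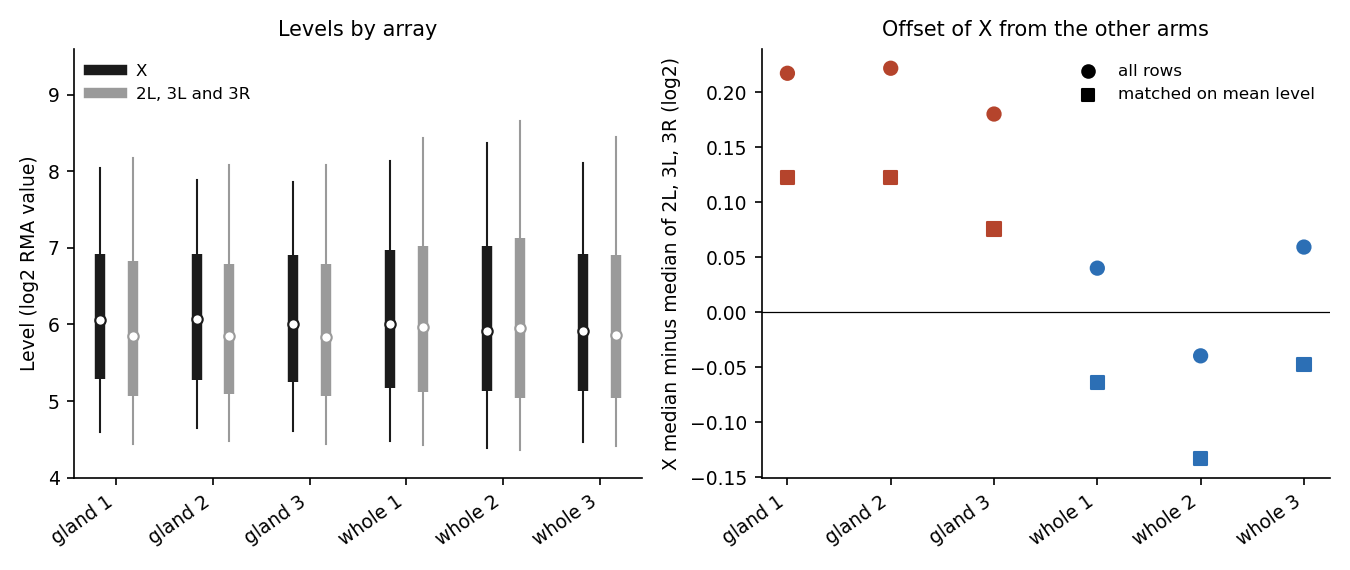
Left, levels of X (black) and of 2L, 3L and 3R (grey) on each array as log2 RMA values, with the median as a circle, the quartiles as a thick bar and the 10th to 90th percentiles as a thin line. Right, the X median minus the median of the other arms on each array, for all rows (circles) and with the other arms weighted to the X levels (squares); gland is red and whole larva blue. The 3 gland arrays lie at 0.18 to 0.22 for all rows and the 3 whole-larva arrays at -0.040 to 0.059.

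Most X transcripts were slightly brighter in gland than in whole larvae. The median gland minus whole-larva difference on X was 0.13, and 893 of the 1403 (63.6%) lay above 0, against a median of 0.068 and 56.9% over all Anopheles probe sets. With each array centred on the numeric-identifier probe sets both medians turned negative, to -0.30 and -0.36. Among probe sets above the numeric floor on all arrays of a tissue, the X median was 0.010. The floor was lower on whole-larva arrays (6.02 against 6.65). This filter therefore favours rows brighter in whole larvae, which can lower that median. To compare rows of like brightness, the other arms were weighted so that their mean levels, in bins of 0.25, were distributed as those of X. Their median difference was then 0.039, so X stood 0.089 higher, or 1.06-fold. Per array, X lay above the weighted median by 0.12, 0.12 and 0.076 in gland and below it by 0.064, 0.13 and 0.047 in whole larvae. Matching on the mean of all arrays makes opposite signs in the 2 tissues likely, so the gap between them, and not each side alone, describes X. Weighted one at a time, 2L had a median of 0.030, 3L of 0.039 and 3R of 0.050, and 2R, which is not among the comparison arms, had 0.037. X stood above each of these arms, by 0.078 to 0.099, while the 4 arms lay closer together. A raised median was not particular to X. The 1938 Anopheles probe sets without a placed arm, not weighted by level, had a median of 0.18, with 71.5% above 0.

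The distribution of X differences was narrower than that of the other arms and lacked its longest deficits. At the low end, the 5th percentile was -1.25 on X and -1.90 on the weighted arms, and the 25th percentile was -0.17 against -0.35. On the upper side X was higher at the 75th percentile, 0.38 against 0.32, and lower at the 95th, 0.84 against 0.92. A deficit of 2-fold or more in gland was measured for 90 X probe sets (6.41%), against 11.1% of the weighted arms, and a rise of 2-fold or more for 54 (3.85%) against 4.43%. None of the 1403 was 32-fold lower in gland, where 42 of the 9101 were (0.430% after weighting), and the lowest X difference was -4.39 against -7.34. X therefore had smaller shares at both ends, and the gap in shares was wider for deficits. The unplaced probe sets, not weighted, had smaller shares still, with 3.77% at a 2-fold deficit, 2.22% at a 2-fold rise and a 5th percentile of -0.84.

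**Figure D2:**
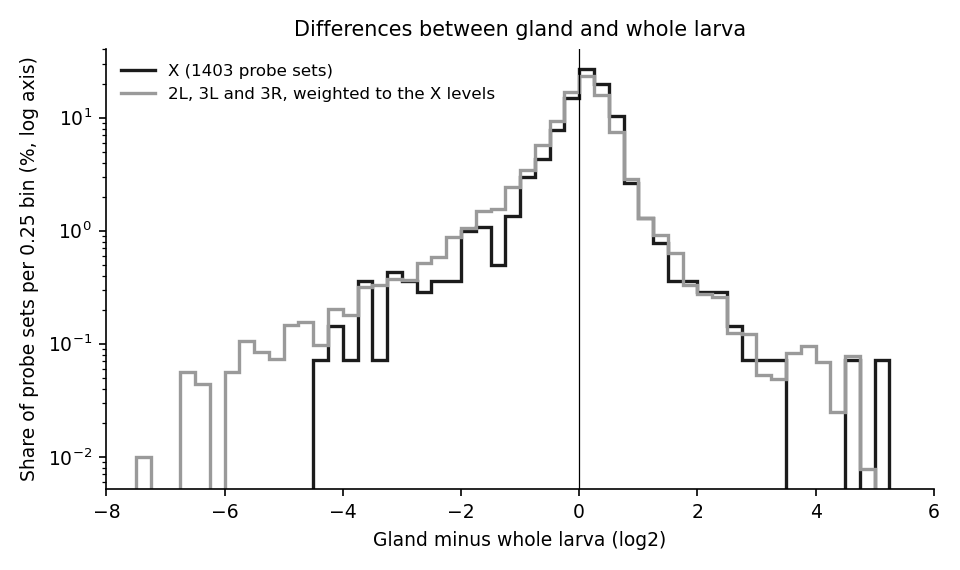
Share of probe sets (percent, log axis) in bins of 0.25 of the gland minus whole-larva difference (log2), for the 1403 X probe sets (black) and for 2L, 3L and 3R weighted to the X levels (grey). The X line lies above the grey one just right of 0 and below it over most of the range from -1 to -3, and it ends at -4.39.

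The X excess varied with brightness and with the kind of probe set. At mean levels from 5 to 8, which held 1014 X probe sets, the median difference was 0.15 on X and 0.030 on the other arms. Under 5 the medians were 0.12 and 0.082 (261 X probe sets), and at 8 and over they were -0.17 and -0.038 (128), so the order turned there. The turn was uneven within that range. The medians were -0.092 and -0.088 at levels 8 to 9 (66 X probe sets), -0.39 and -0.14 at 9 to 10 (35), and -0.53 and 0.23 at 10 to 11 (13). At 11 and over they were 0.014 and 0.077 (14), and at 11 to 12 X was the higher, 1.86 against 0.094 (4). By the part of the transcript that the identifier marks, the 1118 coding-sequence probe sets had a median of 0.15, against 0.051 for level-matched ones elsewhere. The 68 probe sets marked UTR had -0.054 against -0.18. The 217 with neither mark had -0.036 against -0.014, so these showed no excess. The numeric-identifier probe sets, whose target is unknown, had a median difference of 0.37 toward gland and a median level of 4.78, and the part of brightness scale in the X values was not tested.

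Single X transcripts were tested with limma over all 16884 Anopheles probe sets, with Benjamini-Hochberg adjustment over all of them. A probe set was called at an adjusted p under 0.01 and at least a 2-fold difference, with the brighter group above a low floor on all 3 arrays, the 95th percentile of 4502 Plasmodium-form probe sets. On X, 1338 probe sets cleared that floor on all arrays of at least 1 tissue. Higher in gland were 36 X probe sets (2.57%), against 2.39% of all Anopheles probe sets. Lower in gland were 44 (3.14%), against 4.99%. In shares, X was near the background for rises and below it for deficits. The unplaced probe sets had 1.14% higher and 1.70% lower. Weighted to the X levels, 2L, 3L and 3R had 2.72% higher and 5.60% lower, so their share of deficits was not smaller among rows as bright as those of X. Gland values lay above all whole-larva values for 392 X probe sets (27.9%; 24.0% of all) and below them for 194 (13.8%; 17.7% of all).

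The rises had a median difference of 1.77, or 3.42-fold, and ranged from 1.00 to 5.14. The deficits had a median of -2.44, or 5.43-fold lower, and ranged from -1.07 to -4.39. At 4-fold there were 14 rises and 27 deficits among the 1403, against 114 and 307 among the 9101 of the other arms. Called or not, 4-fold rises were 1.07% of X and 4-fold deficits 2.49%, against 1.32% and 4.35% on the other arms. At 8-fold X had 4 called rises and 12 called deficits, and at 16-fold 2 and 2, counts not given for the other arms. By level, the deficit share on X was 3.25% at levels 5 to 8, against 5.85% on the other arms, and 8.59% against 11.6% at 8 and over. The share of rises was 2.07% against 1.95% and 11.7% against 12.8%. The counts fell when 1 gland array was left out, to 18 higher and 22 lower without replicate 1, 14 and 18 without replicate 2, and 18 and 17 without replicate 3. The methods' t-test, equal in variance and adjusted in the same way, left 0 and 1. Without adjustment it gave 41 and 44 at p under 0.01 and 51 and 72 at p under 0.05, alternatives chosen after seeing the data. Other scalings moved the split, to 57 higher and 41 lower after a further quantile normalization and to 18 and 89 after centring each array on the numeric-identifier probe sets.

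**Figure D3:**
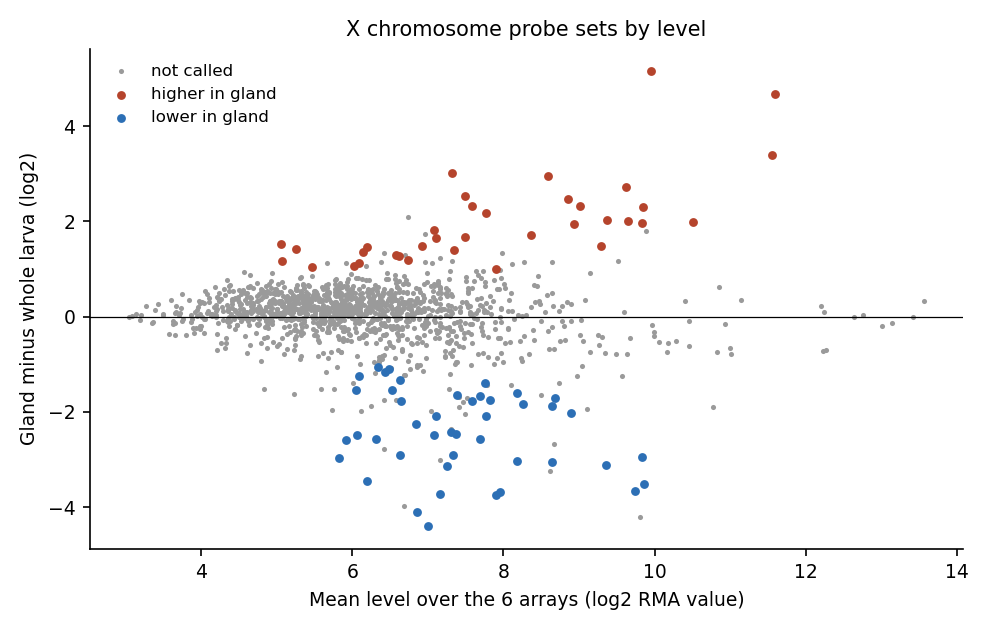
Each point is 1 of the 1403 X probe sets, at its mean level over the 6 arrays (log2 RMA value) and its gland minus whole-larva difference (log2). The 36 called higher in gland are red and the 44 called lower are blue; rises reach 5.14 and deficits -4.39, and no call lies at the dimmest levels.

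Among the rises, the gland level was mostly high and the whole-larva level mostly measurable. The 36 had a median gland level of 8.75 and a median whole-larva level of 6.65, and 13 of them reached a gland level of 10. In whole larvae 20 lay above the numeric floor on all 3 arrays, 7 on some, and 9 on none. Of the 9, 4 lay under it on every gland array too. By mark, 29 of the 36 were coding-sequence (2.59% of such X probe sets, 2.82% on the other arms). The rest were 2 marked UTR (2.94%, against 2.62%) and 5 with neither mark (2.30%, against 2.75%).

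Ag.X.814.0_CDS_at had the largest rise. It measured 12.32, 12.25 and 13.02 on the gland arrays and 7.44, 7.84 and 6.88 on the whole-larva arrays. All gland values lay far above all whole-larva values, by more than any spread within a group. The gland excess of 5.14 (SE 0.328, limma adjusted p = 7.48e-05) was 35.4-fold.

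Ag.X.815.0_CDS_at, the next identifier number, had the next largest rise and the highest gland level of any called X transcript. It measured 13.77, 13.79 and 14.23 in gland and 8.93, 9.99 and 8.88 in whole larvae, so it was also well above the floor in the whole animal. The excess of 4.66 (SE 0.330, limma adjusted p = 1.04e-04) was 25.3-fold. Ag.X.520.1_a_at came next by gland level, with 13.06, 13.19 and 13.47 in gland and 10.24, 9.89 and 9.43 in whole larvae. Its groups did not overlap, and it differed by 3.39 (SE 0.255, limma adjusted p = 1.34e-04), or 10.4-fold.

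Some rises started from a whole-larva level at or below the numeric floor. Ag.X.350.0_CDS_at measured 8.80, 8.42 and 9.26 in gland and 5.92, 5.62 and 5.89 in whole larvae. All gland arrays were above the floor and none of the whole-larva arrays were, so its fold is a bound. The measured difference was 3.01 (SE 0.251, limma adjusted p = 2.18e-04), and gland was at least 6.97-fold brighter than whole larvae, whose floor of 6.02 sets the bound. Ag.X.635.0_CDS_at was dim throughout, with 5.73, 5.63 and 6.10 in gland and 4.03, 4.55 and 4.31 in whole larvae. Its groups did not overlap (difference 1.53, SE 0.184, limma adjusted p = 0.00134), but all 6 values lay under the floor, so no fold is given. Over the floor on every gland array and on no whole-larva array were 2 of the 1403 (0.143%). The other arms had 0.165%, and 0.189% after weighting, so the share was near that background. Both were called higher, the direction that this selection favours. They were Ag.X.350.0_CDS_at and Ag.X.634.0_CDS_at, the latter named after its values were seen.

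Deficits ran the other way in brightness, with most of them at or below the numeric floor in gland. The 44 had a median gland level of 6.05 and a median whole-larva level of 8.57, and 5 reached a whole-larva level of 10. On no gland array did 26 of them exceed the floor, while 11 exceeded it on all and 7 on some. Whole-larva arrays spread more over the deficits (median SD 0.413) than gland arrays did (0.234). By mark, 29 were coding-sequence (2.59% of such X probe sets, 5.20% on the other arms), 8 were UTR (11.8%, against 8.08%) and 7 neither (3.23%, against 4.70%). Among the 44, 5 carried the suffix _s_at or _x_at, which marks probes shared with other transcripts.

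Ag.X.860.0_CDS_at had the largest called deficit. It measured 4.96, 4.52 and 4.93 in gland and 8.63, 9.19 and 9.78 in whole larvae. The gland values lay well under the floor and the whole-larva values well over it, with no overlap. It differed by -4.39 (SE 0.306, limma adjusted p = 1.00e-04), a deficit of at least 5.85-fold in gland. Ag.X.226.0_CDS_at measured 4.83, 4.91 and 4.70 in gland and 9.78, 9.62 and 7.33 in whole larvae. Whole-larva array 3 lay well under the other two and still above every gland array. It differed by -4.10 (SE 0.595, limma adjusted p = 0.00324), a deficit of at least 4.78-fold. The limma adjusted p missed 0.01 without any single gland array (0.0171, 0.0183 and 0.0209 without replicates 1, 2 and 3) and without whole-larva replicate 2 (0.0112).

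Other deficits left the transcript measurable in gland. Ag.X.1101.0_CDS_at measured 7.94, 8.32 and 7.49 in gland and 11.64, 11.57 and 11.52 in whole larvae, where the 3 pools nearly coincided. Gland was lower by -3.66 (SE 0.256, limma adjusted p = 1.02e-04), which is 12.6-fold. Ag.X.354.1_at measured 8.28, 7.78 and 8.24 in gland and 11.22, 11.66 and 11.94 in whole larvae. The groups lay apart by -3.51 (SE 0.269, limma adjusted p = 1.43e-04), or 11.4-fold. Ag.X.354.0_CDS_at, another variant under the same number and named after its values were seen, differed by 0.82 in the opposite direction (SE 0.275, limma adjusted p = 0.0758).

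More X transcripts crossed the numeric floor in whole larvae alone than in gland alone. Above it on all whole-larva arrays and no gland array were 109 (7.77%), against 10.5% of the other arms and 11.7% after weighting. Of these 109, 25 were called lower. This selection favours that direction, and the called share is not given for the other arms, so the 25 are not read as particular to X. The 109 had a median level of 6.74 in whole larvae and 6.14 in gland. The floor itself was lower on whole-larva arrays (6.02 against 6.65), so a transcript could fall in this set with a small difference.

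The brightest X transcripts were mostly alike in both tissues, as were X transcripts in general. Of the 14 with a mean level of 11 or more, 9 were not called and lay within 0.5 of 0. The same held for 974 of all 1403 X probe sets, so this likeness is not read as particular to the bright ones. Of the 14, 2 were called, Ag.X.815.0_CDS_at and Ag.X.520.1_a_at. At this level 14.3% of X was called higher and 0% lower, against 19.4% and 3.87% on the other arms. Ag.X.72.0_CDS_a_at, the brightest of the 9, measured 13.84, 13.75 and 13.59 in gland and 13.48, 13.33 and 13.35 in whole larvae. Its gland values lay just above its whole-larva values, and the difference of 0.34 (SE 0.151) did not pass (limma adjusted p = 0.157). Ag.X.75.0_CDS_at measured 13.57, 13.47 and 13.21 in gland and 13.62, 13.08 and 13.56 in whole larvae, with full overlap and a difference of -0.0029 (SE 0.202, limma adjusted p = 0.993).

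**Figure D4:**
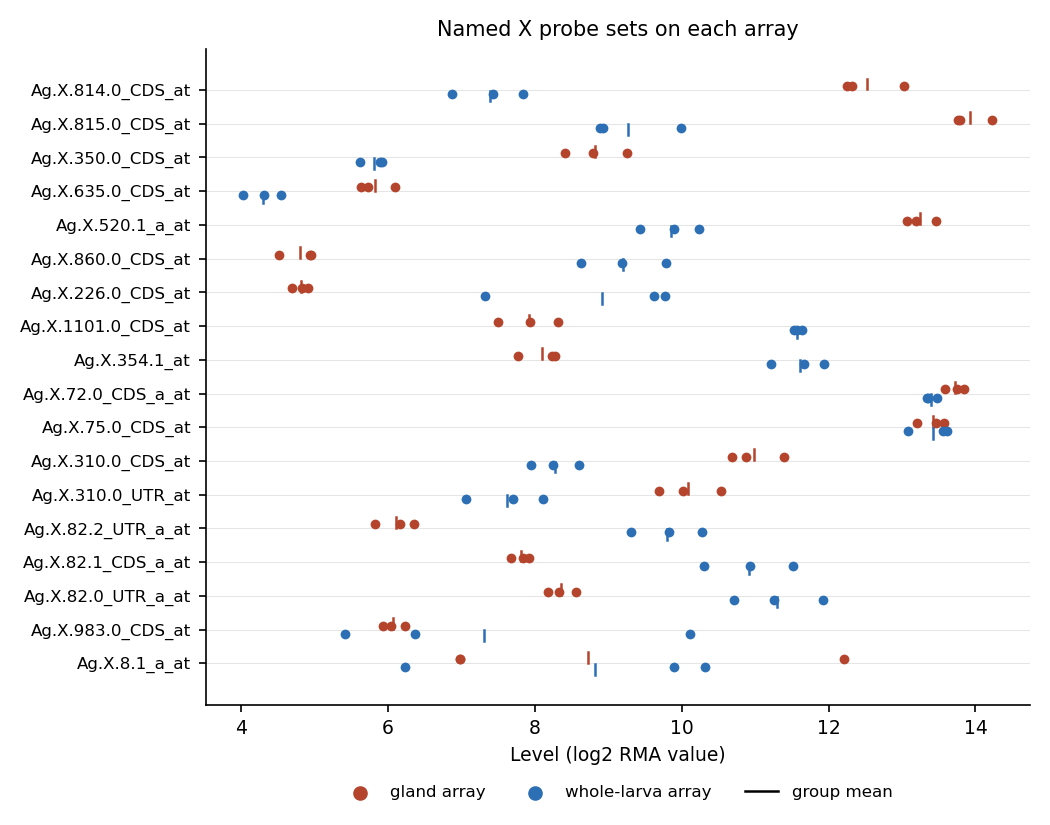
Levels (log2 RMA value) of the named X probe sets on each gland array (red) and whole-larva array (blue), with group means as short vertical lines. The groups lie apart for the called members, such as 12.25 to 13.02 against 6.88 to 7.84 for Ag.X.814.0_CDS_at, and Ag.X.8.1_a_at and Ag.X.983.0_CDS_at spread widely within a group.

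Some X transcripts varied widely between pools of the same tissue. The SD over the 3 whole-larva arrays reached 1 for 28 X probe sets (1.996%, against 3.65% on the other arms), of which 3 were called lower. The SD over the gland arrays reached 1 for 9 (0.641%, against 0.450%). Ag.X.983.0_CDS_at had the largest whole-larva SD, with 10.11, 6.37 and 5.42, while its gland arrays read 6.04, 6.24 and 5.94. Only the first whole-larva pool was bright. Ag.X.8.1_a_at varied in both tissues, with 12.21, 6.98 and 6.98 in gland and 6.24, 9.90 and 10.32 in whole larvae. A single gland pool and a pair of whole-larva pools were bright, and its difference was -0.097 (SE 1.59, limma adjusted p = 0.973).

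Probe sets that share an X identifier number allowed calls to be compared within a number, where identifiers mark different parts or variants. Among 141 numbers with 2 or more probe sets (302 probe sets), 3 had at least 2 called higher, 6 had at least 2 called lower, 11 had exactly 1 called and 121 had none. No number held calls in both directions. In the 3 and the 6, every probe set of the number was called. The median span of differences within a number was 0.39, and 16 numbers spanned 1 or more. The same counts are not given here for the other arms, so they are not read as particular to X.

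Ag.X.310 had the largest rise found by more than 1 probe set. Its coding-sequence probe set measured 10.69, 10.87 and 11.39 in gland and 7.95, 8.25 and 8.60 in whole larvae, a difference of 2.72 (SE 0.278, limma adjusted p = 6.08e-04). Its UTR probe set measured 9.70, 10.02 and 10.54 in gland and 7.06, 8.11 and 7.70 in whole larvae, a difference of 2.46 (SE 0.340, limma adjusted p = 0.00260). Both were apart on all arrays and of like size. The UTR probe set missed 0.01 without gland replicate 2 (adjusted p = 0.0171) or 3 (0.0143).

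Ag.X.82 had the largest such deficit by the mean over its probe sets, -3.24 over 3, against -3.14 for Ag.X.205, whose larger single deficit was -3.72 and which was named after its values were seen. Ag.X.82.2_UTR_a_at measured 6.17, 6.35 and 5.83 in gland and 10.27, 9.83 and 9.31 in whole larvae. Its difference was -3.69 (SE 0.290, limma adjusted p = 1.63e-04), with a bound of 8.89-fold, since its gland values lay under the floor. Ag.X.82.1_CDS_a_at fell by 3.10 (SE 0.321, adjusted p = 6.27e-04) and Ag.X.82.0_UTR_a_at by 2.94 (SE 0.323, adjusted p = 8.47e-04), both still above the floor in gland. All 3 were lower on every gland array than on any whole-larva array.

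Coding-sequence and UTR probe sets of the same X variant formed 57 pairs. Their differences had the same sign in 44 pairs, with a median gap of 0.38 between the 2 probe sets, and correlated at r = 0.79 (Spearman's rho 0.75) over the 57, which share arrays and pools. Calls fell on both members of 5 pairs and on 1 member of 4. These pair counts too are given for X alone and are not set against the other arms.

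Identifier numbers went with brightness on X and, from number 200 upward, on the other arms too. The X numbers ran from 1 to 1842, and the median level fell from 7.30 for numbers 1 to 199 to 6.51, 5.88, 5.62 and 5.40 in the next 4 blocks of 200. Over 2L, 3L and 3R together it was 6.48 for numbers 1 to 199 and then fell from 7.49 to 6.72, 6.29 and 6.09. From 1200 upward all 105 probe sets carried neither mark. Numbers 1 to 199 held 9 rises and 19 deficits among 268 probe sets, 200 to 399 held 8 and 9 among 251, and 400 to 599 held 9 and 2 among 216. As shares, X had 3.36% higher and 7.09% lower in the first of these blocks, against 1.90% and 8.98% on the other arms. In the next block the shares were 3.19% and 3.59%, against 5.02% and 10.9%, and for 400 to 599 they were 4.17% and 0.926%, against 2.15% and 7.59%. Against rows of the other arms of like level, X stood 0.015 higher in the first block, 0.075 in the next, then 0.13, 0.12 and 0.15, and 0.094 for numbers 1000 to 1199. From 1200 it stood lower, at -0.074. Called transcripts with consecutive numbers were Ag.X.814 with Ag.X.815 and Ag.X.634 with Ag.X.635, all higher, and no consecutive pair was lower, among 1118 consecutive pairs present. Of the 1242 X numbers, 33 held a rise and 37 a deficit. No count of such pairs is given for the other arms, so they are not read as a pattern of rises. The sources used here give no chromosome positions for the identifiers, so consecutive numbers are not read as neighbouring genes.

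**Figure D5:**
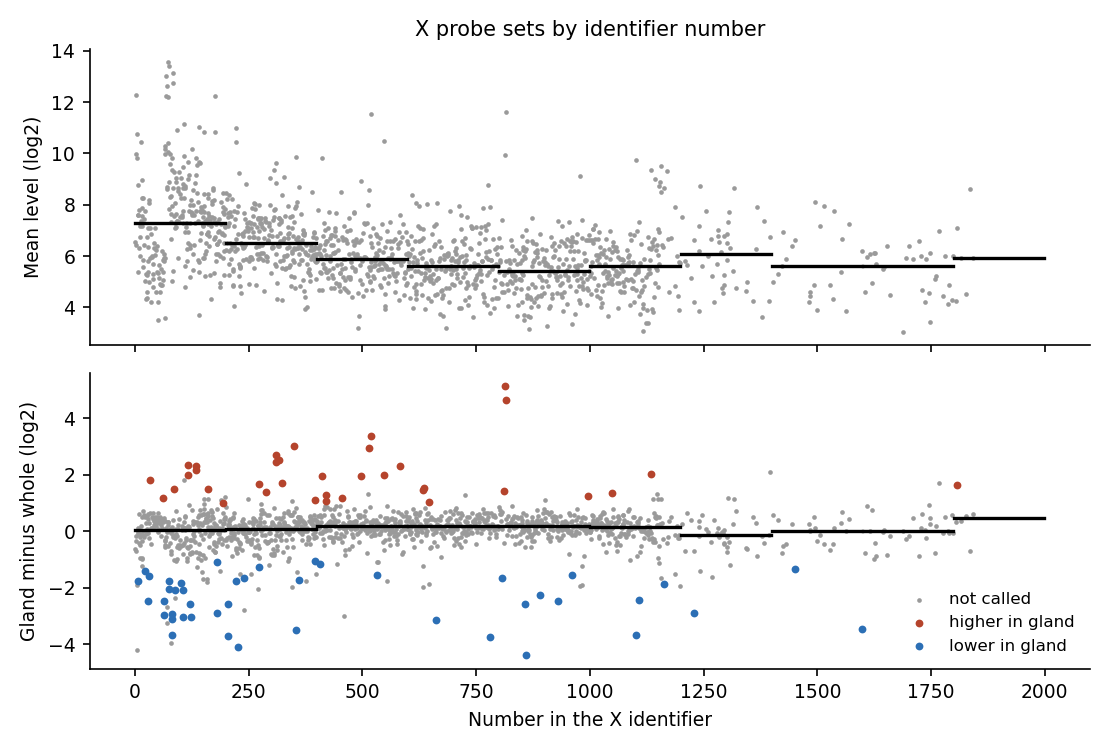
The 1403 X probe sets by the number in their identifier, against the mean level (top) and the gland minus whole-larva difference (bottom), both log2. Black lines are medians of blocks of 200 numbers, falling from 7.30 to 5.40 over the first 5 blocks in the top panel. Called rises are red and called deficits are blue.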

How the data were processed

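The deposited table held 1 log2 value per probe set and array for 22761 probe sets on 6 arrays. The submitters' processing notes name only RMA, and the log2 scale was taken from the range of the deposited values (2.46 to 14.9). The sources used here give neither RMA's version and settings nor any array batch. RMA usually equalizes distributions between arrays, which can hide a shift shared by most transcripts. The values carry no detection call. No pair of arrays was identical (0).

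The arm was read from the identifier. Gland and whole larva were compared with limma 3.58.1 in R 4.3.3 (lmFit, eBayes with intensity trend, group as the only term) fitted to 16884 Anopheles probe sets on 6 arrays, with Benjamini-Hochberg adjustment. This replaces the methods' t-test, since 3 arrays a group give poor variances for single probe sets, and the fit was checked on simulated data. Folds of transcripts under the numeric floor on all arrays of the dimmer tissue are bounds, with values raised to that floor. X was compared with 2L, 3L and 3R after weighting by mean level. Named probe sets are at most 2 for each kind described, the most extreme by the measure stated, and further ones are marked as chosen after their values were seen. The members, lists and tests were chosen with earlier results of these data known. Figures were drawn with matplotlib 3.10.9. The unadjusted methods' t-test and the coding-sequence probe sets alone were alternatives chosen after seeing the data.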

Additional observations from a re-analysis of the deposited data

How the results depend on the processing

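The X counts of 36 higher and 44 lower in gland depended on the test and the scaling. They became 0 and 1 with the methods' t-test after adjustment, 18 and 89 when arrays were centred on numeric-identifier probe sets, and 57 higher (41 lower) after repeated quantile normalization. That centring took the Anopheles median from 0.068 to -0.36 and the X median from 0.13 to -0.30, while X stayed 0.089 above its level-matched rows. At 4-fold, 14 and 27 remained, and at an adjusted p under 0.05 there were 72 lower. Leaving out each array in turn gave 14 to 36 higher and 17 to 58 lower. With a replicate block, 23 were higher (22 of them among the 36) and 35 lower. The replicate numbers were not taken as pairs, since deviations of same-numbered arrays correlated at 0.10, -0.087 and -0.0022. With probe sets above the numeric floor alone, the X median difference was 0.010, the X gap in level became 0.034 in gland and -0.16 in whole larvae, and X stood 0.097 above level-matched rows. That filter is unequal between the tissues, since the floor was lower on whole-larva arrays. With 2R among the comparison arms the gland gap was 0.18. The level-matched X excess kept its direction and lay between 0.086 and 0.10 under the alternatives run, apart from both centrings, which cannot move it, and between 0.075 and 0.11 with any 1 array left out. No named call passed 0.01 in the adjusted methods' t-test, with adjusted p from 0.0102 to 0.0572. Ag.X.226.0_CDS_at and Ag.X.310.0_UTR_at kept their calls under the other tests and scalings and lost them only with certain arrays left out. Ag.X.226.0_CDS_at lost its call without any 1 gland array or without whole-larva replicate 2. Ag.X.310.0_UTR_at lost its call without gland replicate 2 or 3. Ag.X.635.0_CDS_at also falls short of the numeric floor and of 4-fold, and Ag.X.634.0_CDS_at of 4-fold. The cause of these changes was not tested. Dim transcripts have only bounds, since the gland floor lay at 6.65.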

Other observations

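Large X differences without a call were mostly deficits, as on the other arms. A 2-fold deficit without a call was measured for 46 X probe sets (3.28%, against 5.26% of 2L, 3L and 3R). Their median SD was 0.896 over whole-larva arrays and 0.216 over gland arrays. In 38 of them the groups did not overlap (82.6%, near the 80.4% of such deficits on the other arms). On the other arms the median SDs of such deficits were 0.877 and 0.194. A 2-fold rise without a call was measured for 18 (1.28%, against 1.63%), in all of which the groups did not overlap, against 91.2% of such rises on the other arms. The largest were chosen after their values were seen. Ag.X.4.0_CDS_at read 6.71, 7.23 and 9.20 in gland and 9.80, 13.19 and 12.74 in whole larvae, a difference of -4.19 (SE 0.964, limma adjusted p = 0.0216). Ag.X.80.0_UTR_a_at read 4.51, 4.92 and 4.67 in gland and 10.38, 8.70 and 6.92 in whole larvae, a difference of -3.96 (SE 0.743, limma adjusted p = 0.0100). The coding-sequence probe set of the same variant, Ag.X.80.0_CDS_a_at, differed by only -0.70 (mean 6.99 in gland and 7.69 in whole larvae).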
